A study of Mus musculus with 6 samples.

Results

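The genes described here are 10 mouse genes whose products build, sulfate or desulfate heparan sulfate: the endosulfatases *Sulf1* and *Sulf2*, the N-deacetylase and N-sulfotransferases *Ndst1* and *Ndst2*, the O-sulfotransferases *Hs2st1*, *Hs3st1*, *Hs6st1* and *Hs6st2*, and the chain polymerases *Ext1* and *Ext2*. They were found by symbol, 10 of 10, among the 24421 genes of the count table. The list was put together with the difference of *Sulf2* between the groups known, and it therefore counts as chosen on the expression values compared here. The differences of its genes are given as a description. Where the outcome of the test over all genes is named for them, nothing is read from it. RNA was sequenced from alveolar type II (AT2) cells, the surfactant-producing epithelial cells of the lung alveolus, which were sorted by FACS for a lineage label, with 3 AT2CTRL and 3 AT2CAB mice. AT2CTRL mice carried Sftpc-CreERT2/+ and R26-tdTomato/+, and AT2CAB mice carried Sftpc-CreERT2/+ and R26-tdTomato/R26-caBmpr1a, with both transgenes at the Rosa26 locus. The caBmpr1a allele encodes a constitutively active BMP type I receptor. Both it and the tdTomato label depend on the tamoxifen-inducible Cre driven by *Sftpc*, which both groups carry, and a sorted cell may have recombined the label without the receptor allele. AT2CTRL replicate 2 and AT2CAB replicate 1 came from mice of 16 weeks, and the other 4 mice were 12 weeks old. The comparison addresses how transcripts of AT2 cells differ when BMP signaling is raised within them. The paper found this signaling already active in most AT2 cells at steady state, so AT2CTRL is not a state without it.

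Heparan sulfate is a sugar chain carried by cell surface and matrix proteins. EXT1 and EXT2 polymerize it together, the NDST enzymes swap N-acetyl for N-sulfo groups along it, and the HS2ST, HS6ST and HS3ST enzymes add sulfate at set positions of its sugars. SULF1 and SULF2 act afterwards, outside the cell, and remove 6-O-sulfate from finished chains, and the pattern of sulfate is known to set how chains hold BMP, WNT and FGF ligands and the BMP antagonist Noggin.

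The libraries held between 21554249 and 28440227 counts, and levels are given as CPM, counts divided by the TMM-scaled size of each library. The limit that a count of 0 allows, 3 counts, is 0.0976 to 0.138 CPM, which takes in counting error only. AT2CTRL replicate 1 and AT2CAB replicate 3 stood apart: summed over *Eif2s3y*, *Kdm5d*, *Ddx3y* and *Uty*, which are Y-linked, they had 176.4 and 146.3 CPM where the other 4 had 0, and they alone lay on the negative side of the first principal component (49.9% of the variance). The 4 without such reads are called the Y-negative libraries, and log2 fold changes from them alone are given for the 10 genes, and for named genes of the pathway lists where they differed from the pooled value by over 1.5 times or in sign. The AT2 label was checked on *Sftpc*, the gene of surfactant protein C, which had between 42700 and 60123 CPM in every library. The summed level of 10 AT2 markers was between 124500 and 138900 CPM in AT2CTRL and between 101600 and 116100 CPM in AT2CAB, with 9 of 10 on the lower side. For 12 mesenchymal markers the sums were 219.8, 311.9 and 283.5 CPM in AT2CTRL and 380.6, 450.5 and 396.4 CPM in AT2CAB, with 12 of 12 on the higher side. The sums overlapped between the groups for the AT1 markers (3053 to 4028 and 3308 to 3712 CPM), the endothelial markers (500.4 to 838 and 726.7 to 1106 CPM), the immune markers (132 to 166.6 and 97.2 to 239.8 CPM) and the airway markers (723.8 to 912.2 and 839.9 to 1219 CPM). On the higher side were 11 of 12 endothelial markers (median log2 fold change 0.60), 11 of 13 immune markers (0.65), 7 of 10 AT1 markers (0.19) and 4 of 7 tested airway markers (0.17), beside a median of 0.41 for the mesenchymal and -0.43 for the AT2 markers. By the test described below, 1 airway marker was called higher in AT2CAB, and the largest log2 fold change of that list was 1.85. The other cell type marker lists held no called gene. Of the defining markers, *Col1a1* had 25.7 to 31.8 CPM in AT2CTRL and 44.2 to 51.8 CPM in AT2CAB, *Pdgfra* 22.1 to 39.6 and 31.8 to 48.0 CPM, and *Ptprc* 6.14 to 16.3 and 7.36 to 32.0 CPM. Among all markers only *Krt5* was at 0 in all 6 libraries.

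Across all genes, 16723 passed the expression filter, all 10 heparan sulfate genes among them. A gene was called at an adjusted p under 0.05 with a log2 fold change over 1 in size (quasi-likelihood test of edgeR, Benjamini-Hochberg adjusted over all tested genes). By this rule 38 genes (0.227%) were called higher and 2 genes (0.012%) lower in AT2CAB. Without the fold threshold, 40 (0.239%) were higher and 2 (0.012%) lower. Of the 10 genes, 1 was called higher, *Sulf2*, and 0 lower. All 3 AT2CAB values lay above all 3 AT2CTRL values for 4 of the 10 (*Sulf2*, *Ndst1*, *Hs2st1* and *Hs3st1*) and for 7% of the tested genes, and below them for 0 of the 10 and for 10.1% of the tested genes. The median log2 fold change was 0.24 over the 10 genes and -0.0096 over all tested genes. Since the genes were chosen with this contrast known, nothing is read from these counts.

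*Sulf2*, which removes 6-O-sulfate from heparan sulfate, is found at chr2:166073899-166155683 of mm10, minus strand, with 22 exons. Its level was 17.5, 21.4 and 23.2 CPM in AT2CTRL replicates 1, 2 and 3 and 107.9, 159.2 and 187.8 CPM in AT2CAB replicates 1, 2 and 3. Every AT2CAB library lay far above every AT2CTRL library, and the lowest of the 3 was that of the 16-week mouse. Behind these levels stood 391, 499 and 609 counts in AT2CTRL and 2354, 4105 and 5769 counts in AT2CAB. The mean went from 20.7 ± 2.89 CPM (SD, n = 3) to 151.6 ± 40.5 CPM (SD, n = 3), a 7.33-fold ratio, and the log2 fold change was 2.87 with a standard error of 0.22. Among the tested genes, 22 had a log2 fold change above that of *Sulf2*. As the RNA was from bulk samples, more cells with the transcript and more transcript per cell cannot be told apart, and neither can fewer cells of a type and less RNA per cell. The higher sum of mesenchymal markers in AT2CAB moved with this difference, and 11 of 12 endothelial and 11 of 13 immune markers lay on the higher side too, with overlapping sums. The part of these markers in the difference was not tested.

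The difference of *Sulf2* kept its direction in each subset of the libraries, as it had to, since its groups did not overlap. It was 3.06 on the log2 scale among the 12-week mice and 2.31 between the pair of 16-week mice. Between the pair with Y-linked reads this ratio was 3.38. The edgeR fit gave a log2 fold change of 2.62 among the 4 Y-negative libraries. Leaving out 1 library at a time gave between 2.73 and 3.09.

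**Figure D1:**
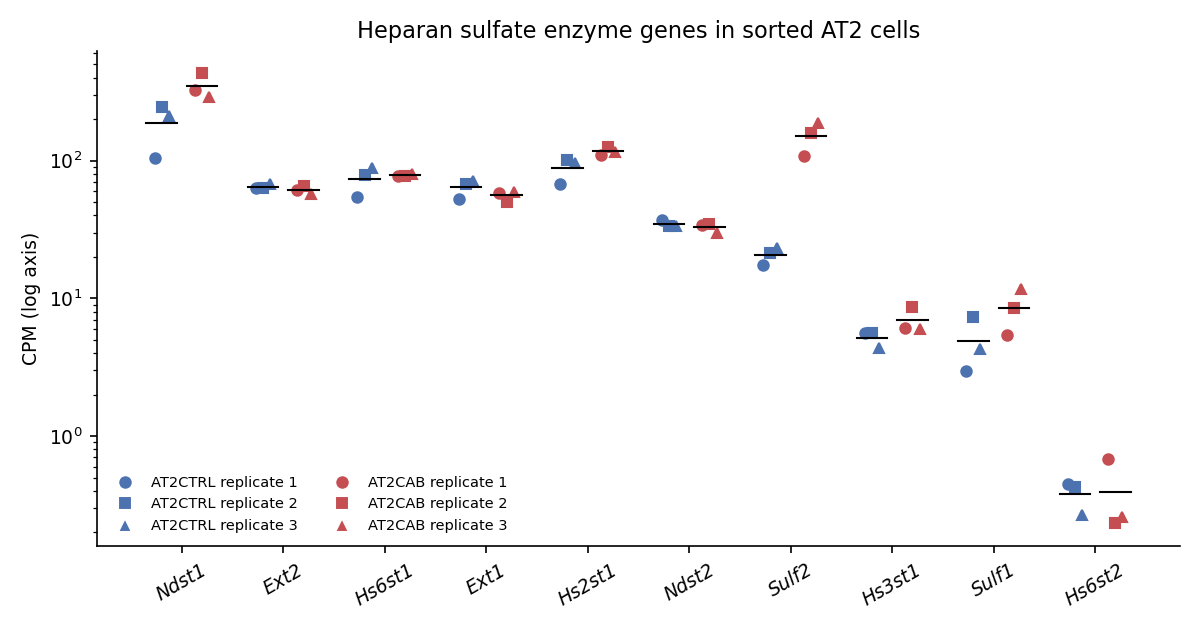
Level of each of the 10 heparan sulfate genes in CPM (log axis) in every library, with genes ordered by their level per kilobase in AT2CTRL; points are libraries and horizontal lines are group means, n = 3. The AT2CAB points of *Sulf2*, 107.9 to 187.8 CPM, lie above its AT2CTRL points, 17.5 to 23.2 CPM, those of *Ndst1*, *Hs2st1* and *Hs3st1* do so by smaller ratios, and the groups of the other 6 genes overlap.

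The promoter of *Sulf2* is shown because its transcript was higher in AT2CAB, as were those of BMP targets. Both were chosen with earlier results of these data known, so nothing is read from their rise together. The promoter of *Hs6st1* is shown too, as that of a gene whose enzyme adds the 6-O-sulfate and whose groups overlapped. The letters GGCGCC and CAGAC, known as core letters of sites bound by BMP-activated and other SMAD proteins, were searched on both strands in the 250 bases upstream of the start site (RefSeq, GRCm38.p6), and matches are in capitals. The motifs do not overlap each other in these windows.

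*Sulf2*, chr2:166155684-166155933, minus strand: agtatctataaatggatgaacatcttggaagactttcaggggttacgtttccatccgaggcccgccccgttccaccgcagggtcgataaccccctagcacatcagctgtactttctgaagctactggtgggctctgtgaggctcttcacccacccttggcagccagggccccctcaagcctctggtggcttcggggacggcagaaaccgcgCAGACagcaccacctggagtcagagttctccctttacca

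*Hs6st1*, chr1:36068150-36068399, plus strand: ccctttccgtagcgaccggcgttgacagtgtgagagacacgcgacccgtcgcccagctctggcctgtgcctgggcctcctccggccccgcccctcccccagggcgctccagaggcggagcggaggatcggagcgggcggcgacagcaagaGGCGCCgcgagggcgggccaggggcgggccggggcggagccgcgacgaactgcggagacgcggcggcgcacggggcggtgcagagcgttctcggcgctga

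The *Sulf2* window shown is the one upstream of the start of the gene in the annotation, and a second RefSeq window, which lies inside the gene, held 0 matches to either motif. The window shown held 0 matches to GGCGCC and 1 match to CAGAC, with 57.2% G or C. The *Hs6st1* window held 1 match to GGCGCC and 0 to CAGAC, with 76.4% G or C. Of 32851 mouse promoter windows of the same length, 9.59% held GGCGCC and 42.2% held CAGAC, and the median share of G or C was 52.4%. The RefSeq table had 9 windows for 7 of the 10 genes, with 2 each for *Sulf2* and *Hs6st2*, and *Sulf1*, *Ndst1* and *Ext1* had none. GGCGCC was otherwise found in 1 window of *Hs6st2*, and CAGAC in that of *Ndst2*. The window of the BMP target *Smad6* held 0 matches to either motif. The matches describe the letters of the windows only.

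*Sulf1*, the second endosulfatase, lies on chromosome 1 from 12692430 to 12860372 on the plus strand. It was a gene of low level, with 2.96, 7.33 and 4.30 CPM in the AT2CTRL libraries (66, 171 and 113 counts) and 5.41, 8.50 and 11.6 CPM in the AT2CAB libraries (118, 219 and 357 counts). The groups overlapped, because AT2CTRL replicate 2 was above AT2CAB replicate 1. These are the 16-week libraries, between which the log2 ratio of AT2CAB over AT2CTRL was -0.41, whereas it was 1.35 among the 12-week libraries. The log2 fold change over all 6 libraries was 0.81 with a standard error of 0.38, and it was 0.30 in the 4 Y-negative libraries. Per kilobase of exon, the level of *Sulf2* was 6.97, 3.43 and 6.34 times that of *Sulf1* in AT2CTRL and 23.5, 22.1 and 19.0 times in AT2CAB, with no overlap between the groups.

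The NDST enzymes start the sulfation of the chain, and the other sulfotransferases act mostly where they have acted. *Ndst1* lies on chromosome 18 from 60685976 to 60713389 on the minus strand. It had 104.4, 243.7 and 211.2 CPM in AT2CTRL and 327.4, 430.6 and 289.6 CPM in AT2CAB. No AT2CAB library was as low as any AT2CTRL library, but AT2CTRL replicate 1 stood well below the other two. The means were 186 ± 72.9 and 349 ± 72.9 CPM (SD, n = 3), and the log2 fold change was 0.91 with a standard error of 0.30, which was not a call. It came to 0.61 without AT2CTRL replicate 1, to 1.19 among the 12-week libraries, to 0.43 between the 16-week libraries, and to 0.77 in the 4 Y-negative libraries.

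*Ndst2*, on chromosome 14 from 20723730 to 20734562, had 36.8, 33.7 and 33.4 CPM in AT2CTRL and 34.2, 34.7 and 29.8 CPM in AT2CAB. The groups overlapped, and the log2 fold change was -0.07 with a standard error of 0.12 (0.074 in the 4 Y-negative libraries). As a ratio of levels per kilobase, *Ndst1* stood at 1.83, 4.66 and 4.07 times *Ndst2* in AT2CTRL and at 6.15, 7.98 and 6.25 times in AT2CAB, so that the AT2CAB ratios were all the higher ones and the lowest was again in AT2CTRL replicate 1.

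*Hs2st1* encodes the enzyme that sulfates uronic acids of the chain at the 2-O position, and lies on chromosome 3 from 144431107 to 144570216. Its level was 67.9, 101.5 and 95.7 CPM in AT2CTRL and 110.0, 124.9 and 115.7 CPM in AT2CAB. The groups did not overlap, with AT2CTRL replicate 1 the lowest. The log2 fold change of 0.40, with a standard error of 0.16, was not a call, and it was 0.24 without that library and 0.29 in the 4 Y-negative libraries.

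6-O-sulfate, the substrate of SULF1 and SULF2, is added by the HS6ST enzymes. *Hs6st1*, on chromosome 1 from 36068400 to 36106446, had 54.6, 78.0 and 88.8 CPM in AT2CTRL and 76.7, 77.7 and 79.9 CPM in AT2CAB. The AT2CAB libraries lay close together, inside the range of the AT2CTRL libraries, and the log2 fold change was 0.08 with a standard error of 0.17 (-0.078 in the 4 Y-negative libraries). The GENCODE annotation places the antisense gene Gm37335 on 12.0% of its exon bases, and since counting did not use strand, reads of the pair cannot be told apart there. *Hs6st2*, on chromosome X from 51386637 to 51681602, was near the lower end of detection, with 10, 10 and 7 counts in AT2CTRL and 15, 6 and 8 counts in AT2CAB. Its levels were between 0.267 and 0.448 CPM in AT2CTRL and between 0.233 and 0.688 CPM in AT2CAB, and a difference was not detectable at this depth (log2 fold change 0.03, standard error 0.69, and 0.42 in the 4 Y-negative libraries).

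*Hs3st1*, on chromosome 5 from 39613935 to 39644631, encodes the enzyme that adds the 3-O-sulfate found in the antithrombin-binding site of heparin. It had 5.60, 5.61 and 4.34 CPM in AT2CTRL (125, 131 and 114 counts) and 6.05, 8.69 and 5.99 CPM in AT2CAB (132, 224 and 184 counts). The groups did not overlap, but AT2CAB replicates 1 and 3 lay just above AT2CTRL replicates 1 and 2. The log2 fold change was 0.41 with a standard error of 0.24, not a call. It was 0.23 without AT2CAB replicate 2 and 0.61 in the 4 Y-negative libraries.

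The polymerases showed no separation of the groups. *Ext1*, on chromosome 15 from 53068261 to 53346183, had 52.8, 68.0 and 70.8 CPM in AT2CTRL and 58.6, 50.0 and 59.4 CPM in AT2CAB, with a log2 fold change of -0.19 and a standard error of 0.14. That value was -0.32 without AT2CTRL replicate 1, -0.10 without AT2CAB replicate 2 and -0.32 in the 4 Y-negative libraries. *Ext2*, on chromosome 2 from 93695631 to 93822568, had 62.9, 63.1 and 67.5 CPM in AT2CTRL and 61.3, 65.6 and 57.5 CPM in AT2CAB, with a log2 fold change of -0.07 (0.0011 with upper-quartile scaling, -0.0083 in the 4 Y-negative libraries) and a standard error of 0.11. The level of *Ext1* per kilobase was between 0.695 and 0.893 times that of *Ext2* in AT2CTRL and between 0.632 and 0.856 times in AT2CAB, ranges that overlapped.

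**Figure D2:**
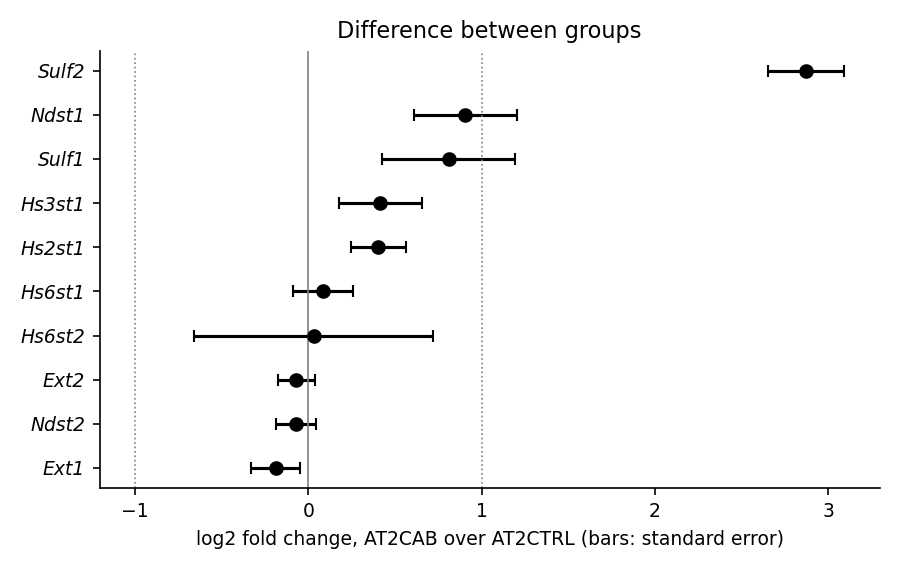
Log2 fold change of AT2CAB over AT2CTRL for each of the 10 genes from the edgeR fit, with bars of 1 standard error; dotted lines mark a log2 fold change of 1 in size. *Sulf2* is at 2.87, *Ndst1* and *Sulf1* are at 0.91 and 0.81, and the other genes lie between -0.19 and 0.41.

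In AT2CTRL, the CPM per kilobase of exon put the 10 genes in an order in which *Sulf2* was number 7. *Ndst1* was first with a mean of 30.7 (17.2 to 40.1 over the 3 libraries), followed by *Ext2* at 22.5, *Hs6st1* at 19.8, and *Ext1* and *Hs2st1* at 18.4 each. Neighbours among these 5 genes had overlapping ranges, so their order is not settled beyond the spread. Below them, neighbours did not overlap: *Ndst2* was at 8.86, *Sulf2* at 5.01 (4.24 to 5.61), *Hs3st1* at 3.08, *Sulf1* at 1.00 and *Hs6st2* at 0.078. *Sulf2* stood at percentile 49.8 of the tested genes on this scale, *Ndst1* at 86.8 and *Sulf1* at 27.9. In AT2CAB, *Sulf2* was number 2 of the 10, with a mean of 36.7 ± 9.79 (SD, n = 3) against 57.5 ± 12.0 for *Ndst1*.

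The make-up of the summed level of the 10 genes differed accordingly. *Sulf2* made up 4.21%, 3.63% and 4.0% of the sum per kilobase in AT2CTRL and 14.9%, 18.4% and 24.0% in AT2CAB. The sum itself was 100.8, 142.6 and 140.2 in AT2CTRL and 175.4, 209.4 and 189.5 in AT2CAB, in CPM per kilobase. *Sulf2* reached 0.247, 0.129 and 0.161 of the level of *Ndst1* in AT2CTRL and 0.484, 0.543 and 0.952 in AT2CAB. The share was highest in AT2CAB replicate 3, where *Sulf2* was highest and *Ndst1* was the lowest of its group.

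**Figure D3:**
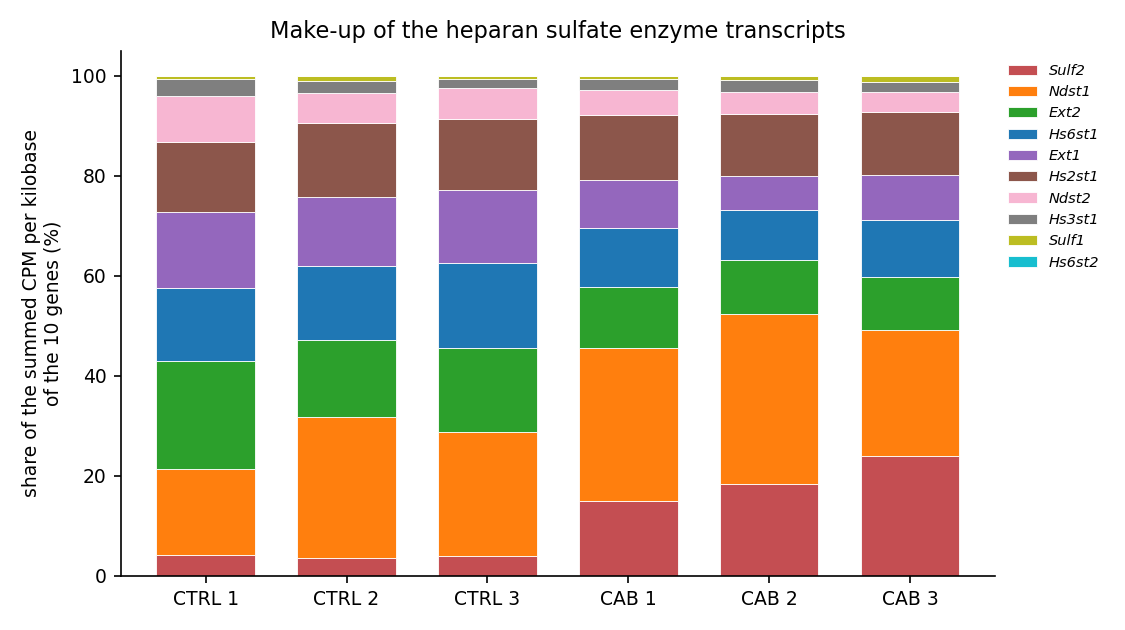
Share of each gene, in percent, of the summed level of the 10 genes (CPM per kilobase of exon) in every library; bars are single libraries. *Sulf2*, at the foot of each bar, holds 3.63% to 4.21% in AT2CTRL and 14.9% to 24.0% in AT2CAB.

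The wider pathway was followed in 3 lists drawn up by membership: 36 other enzymes and transporters of heparan sulfate synthesis and breakdown, 14 core proteins that carry the chains, and 16 enzymes of chondroitin and dermatan sulfate, the sister chains. Of these, 32, 14 and 15 genes passed the expression filter. The lists were drawn up with earlier results of these data known, though not by how their genes moved. At an adjusted p under 0.05 (edgeR), 0 genes of each list were higher and 0 were lower in AT2CAB. At an unadjusted p under 0.05, 2 higher and 0 lower were found among the other heparan sulfate enzymes, 2 and 0 among the core proteins, and 0 and 2 among the chondroitin sulfate enzymes, beside 773 higher and 844 lower among all 16723 tested genes. With DESeq2, 1 gene of the 3 lists passed. The medians of the log2 fold changes were -0.025, 0.041 and 0.047, against -0.0096 over all tested genes.

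*Hpse*, which encodes heparanase, the enzyme that cuts heparan sulfate chains, was the gene that passed with DESeq2. It had 2.33, 3.21 and 3.50 CPM in AT2CTRL and 5.55, 7.25 and 6.67 CPM in AT2CAB, with no overlap. The log2 fold change was 1.10 with a standard error of 0.26 (edgeR, adjusted p = 0.226), and the adjusted p was 0.0158 with DESeq2, 0.0453 in edgeR with a covariate for Y-linked reads, and 0.173 in the 4 Y-negative libraries. *Papss2*, one of the enzymes that make the sulfate donor PAPS, had 4.62, 6.73 and 4.53 CPM in AT2CTRL and 7.34, 9.39 and 9.24 CPM in AT2CAB, which did not overlap, and did not pass (log2 fold change 0.71, standard error 0.23, edgeR adjusted p = 0.383). Among the most abundant genes of this list per kilobase, *Hgsnat*, which acts in the lysosomal breakdown of the chain, and *B3gat3*, which helps make its linker to the core protein, had log2 fold changes of -0.15 and -0.11 and overlapping groups. That of *B3gat3* was 0.026 in the 4 Y-negative libraries.

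Among the core proteins the highest levels were those of the syndecans *Sdc1* and *Sdc4*, cell surface proteins, and of *Agrn*, a matrix protein. *Sdc1* had 953.9, 949.6 and 1029.5 CPM in AT2CTRL and 1020.7, 1001.6 and 1090.9 CPM in AT2CAB, which overlapped. *Sdc4* had 673.5, 548.3 and 551.5 CPM in AT2CTRL and 503.8, 503.9 and 542.6 CPM in AT2CAB, all lower by a small margin (log2 fold change -0.19, edgeR adjusted p = 0.673, and -0.093 in the 4 Y-negative libraries). *Agrn* had a log2 fold change of 0.28 with overlapping groups. *Gpc3*, a glypican anchored to the membrane by a lipid, had 35.3, 35.1 and 25.6 CPM in AT2CTRL and 36.8, 40.8 and 48.1 CPM in AT2CAB (log2 fold change 0.39, edgeR adjusted p = 0.499), so its groups were separate but close.

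Of the chondroitin sulfate enzymes, the polymerizing factor *Chpf* had 82.9, 81.9 and 92.1 CPM in AT2CTRL and 77.8, 68.8 and 66.6 CPM in AT2CAB (log2 fold change -0.27, edgeR adjusted p = 0.50). The 4-O-sulfotransferase *Chst12* had 25.2, 28.0 and 25.8 CPM in AT2CTRL and 22.2, 18.4 and 9.41 CPM in AT2CAB (log2 fold change -0.66, edgeR adjusted p = 0.493). In both, all AT2CAB libraries were below all AT2CTRL libraries, and neither passed the test. For *Chst12* the library with the lowest value was AT2CAB replicate 3, and the log2 fold change was -0.34 without it and -0.37 in the 4 Y-negative libraries. *Chsy1* and *Csgalnact2*, also among the most abundant of the list, had log2 fold changes of 0.05 and 0.03, and that of *Chsy1* was 0.0057 in the 4 Y-negative libraries.

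**Figure D4:**
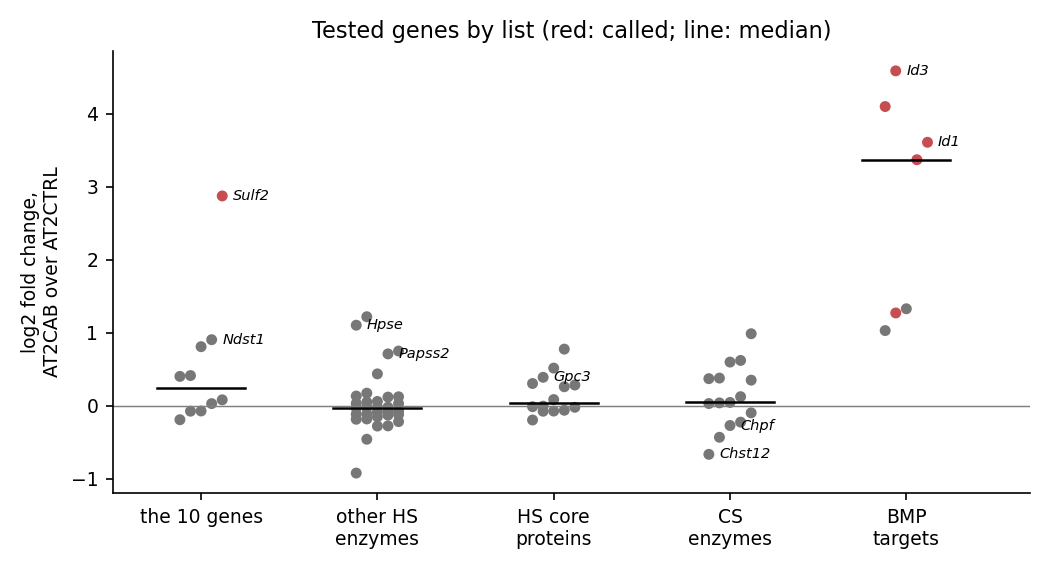
Log2 fold change of AT2CAB over AT2CTRL for the tested genes of 5 lists: the 10 genes, other heparan sulfate (HS) enzymes, HS core proteins, chondroitin sulfate (CS) enzymes and BMP targets; each point is a gene, red points were called, and lines are medians. In the 4 lists of the sulfated chains *Sulf2*, at 2.87, is the called gene, and the BMP targets have a median of 3.37. The 10 genes and the other lists were chosen with earlier results of these data known, the HS and CS lists by membership.

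*Sulf2* was set beside targets of BMP signaling in the same libraries. *Id1*, a direct BMP target, had 18.5, 20.8 and 19.2 CPM in AT2CTRL and 124.4, 176.6 and 411.4 CPM in AT2CAB. *Id3* had 13.8, 15.6 and 11.2 CPM in AT2CTRL and 178.8, 247.1 and 545.2 CPM in AT2CAB, and *Smad6*, an inhibitor induced by the pathway, had 44.7, 63.2 and 55.4 CPM and 105.3, 158.6 and 130.2 CPM. Their log2 fold changes were 3.61, 4.58 and 1.27 (standard errors 0.42, 0.43 and 0.19), and that of *Smad7* was 1.33 with 0.23. The list of BMP targets was also chosen with earlier results of these data known. For 7 of its 7 genes every AT2CAB library lay above every AT2CTRL library, beside 7% of all tested genes. Of the 7, 5 were called higher, beside 0.227% of all tested genes, and 7 of 7 had their lowest AT2CAB value in replicate 1. *Sulf2* had its lowest AT2CAB value in that library too, as did 37 of the 38 genes called higher. *Bmpr1a*, the receptor gene of the count table, had a log2 fold change of -0.01. Whether transcripts of the caBmpr1a allele were counted on this gene was not tested, so the value says nothing about their level.

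The genes most like *Sulf2* in log2 CPM over the 6 libraries, outside the lists, were *Dpyd* (Pearson r = 0.998), *Aebp1* (0.995), *Rcn2* (0.993), *Susd2* (0.993) and *Gss* (0.992). These values mostly carry the difference between the groups that the libraries share, and 334 tested genes had r above 0.9. *Dpyd*, which starts the breakdown of pyrimidines, had 12.6, 12.7 and 15.5 CPM in AT2CTRL and 49.1, 69.5 and 82.1 CPM in AT2CAB. *Aebp1*, an extracellular matrix protein, had 29.0, 40.4 and 30.3 CPM in AT2CTRL and 222.1, 344.3 and 389.3 CPM in AT2CAB. Like *Sulf2*, both were lowest in AT2CAB replicate 1 and highest in replicate 3 of that group. With the mean of each group subtracted, the closest genes were *Ccdc171* (r = 0.995), *Gucy1a2* (0.994), *Magi1* (0.992), *Srrm2* (0.992) and *Zranb3* (0.988), over the same 6 libraries, and none of these was called. None of the first 5 genes was among these. Over so few libraries, the highest r of all tested genes can be this high by chance.

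**Figure D5:**
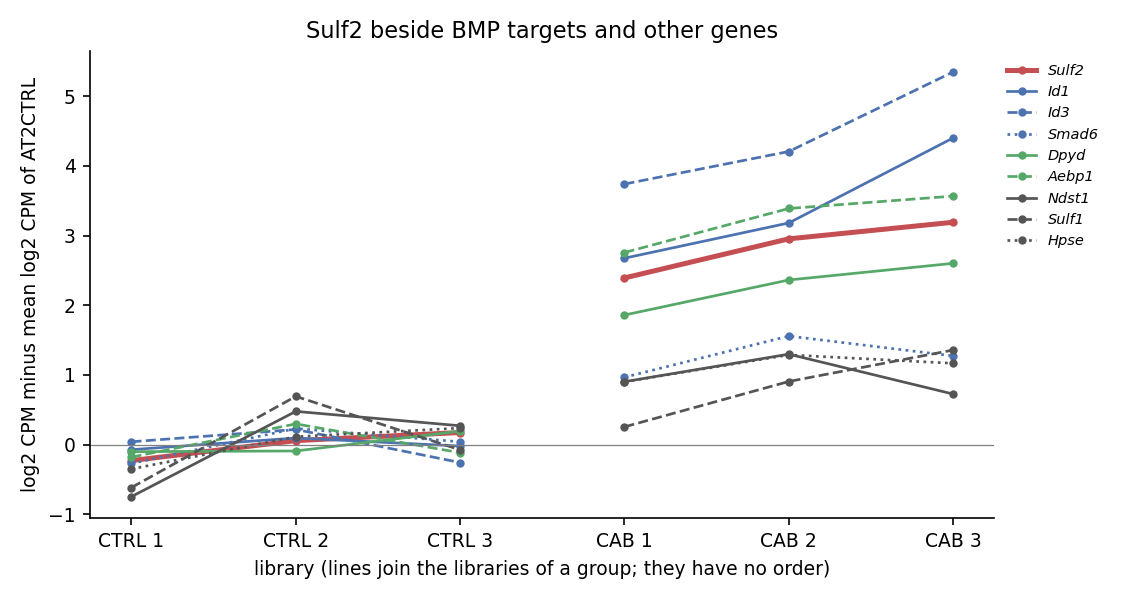
Log2 CPM in each library minus the mean log2 CPM of AT2CTRL for *Sulf2*, 3 BMP targets, the 2 genes most like *Sulf2*, and *Ndst1*, *Sulf1* and *Hpse*; lines join libraries of a group and have no order. *Sulf2*, *Dpyd* and *Aebp1* are lowest in AT2CAB replicate 1 and highest in AT2CAB replicate 3, while *Ndst1* and *Smad6* are highest in AT2CAB replicate 2.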

How the data were processed

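Lineage-labeled AT2 cells of 3 AT2CTRL and 3 AT2CAB mice were profiled by poly(A) RNA-seq. The authors trimmed the reads, aligned them to mm10 with Hisat2, removed duplicates and deposited raw counts per gene from featureCounts 1.5.3, without normalization. The paper states that fragments were counted. Even numbers, however, made up 56.9% to 60.8% of low counts, so mates appear to be counted separately, which overstates the precision of low counts. Strand was not used, and no exon base of the 10 genes is shared with another gene of the table. Reads of close paralogs can be lost. Groups and replicates are those of the labels.

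Counts were analysed with edgeR 4.0.16 in R 4.3.3 (TMM, quasi-likelihood test, p-values adjusted by Benjamini-Hochberg over all tested genes, and its default filter at a minimum of 10 counts), tested on simulated data first. Standard errors are the log2 fold change divided by the square root of F. DESeq2 1.42.0, which the study's methods name, was an alternative, besides other scalings, no filter, a replicate block, covariates for age and for Y-linked reads, and libraries left out. P-values measure the spread between mice. Likeness to Sulf2 used log2(CPM + 0.5). Log2 ratios by age and between the pair with Y-linked reads are differences of log2(mean CPM + 0.5), not edgeR fits. The added 0.5 makes such ratios smaller in size for genes of low level. Levels per kilobase used the exon lengths of the table.

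The 10 genes and all lists were chosen with earlier results of these data known, the 3 pathway lists by membership and not by how their genes moved. Genes named from the 3 pathway lists are those past an adjusted p of 0.05, those with separate groups and an unadjusted p under 0.05, and the 3 most abundant of each list per kilobase; the 5 genes most like Sulf2 by each measure, 4 BMP targets, Bmpr1a and defining markers were also named. One gene that this rule names is not reported here. Krt5 was named after its values were seen. Promoter sequences are from RefSeq, and overlaps from GENCODE M21 on the same genome.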

Additional observations from a re-analysis of the deposited data

Results flagged for a closer look

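The difference between AT2CAB and AT2CTRL pointed in opposite directions at the 2 ages for 9 of the genes named by the rule, in every library of each age, with 1 mouse per group at 16 weeks. For *Sulf1* the log2 ratio was 1.35 at 12 weeks and -0.41 at 16 weeks. For *Hs6st2*, with 6 to 15 counts per library, it was -0.20 at 12 weeks and 0.35 at 16 weeks. At so low a level the 0.5 CPM added before the log makes both values smaller in size. For *Agrn* it was 0.45 at 12 weeks and -0.031 at 16 weeks. Of the genes like *Sulf2* within groups, *Gucy1a2* was at 0.60 and -0.39, *Srrm2* at 0.40 and -0.14, and *Ccdc171* at 0.098 and -0.065, in the same order of ages. Of the cell type markers, *Hopx* (AT1) was at 0.77 and -0.22, *Pecam1* (endothelial) at 1.13 and -0.24, and *Scgb1a1* (airway) at 0.48 and -0.47. The difference between the ages was not tested for these genes. How many of all tested genes changed direction in this way was not counted, so nothing is read from the number.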

How the results depend on the processing

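The direction of *Sulf2*, *Sulf1*, *Ndst1*, *Hs2st1*, *Hs3st1* and *Ext1* was the same in 14 of 14 alternatives. For *Sulf2*, *Ndst1*, *Hs2st1* and *Hs3st1*, whose groups did not overlap, leaving out libraries left little room for another direction. *Sulf2* ranged from 2.62 to 2.96 on the log2 scale over the settings with another method or covariate or with the 4 Y-negative libraries, and from 2.73 to 3.09 with 1 library left out. The genes close to 0 changed sign: *Ndst2* was at 0.074 in the 4 Y-negative libraries and at 0.033 without AT2CAB replicate 3, *Hs6st1* at -0.078 in the 4 Y-negative libraries and at -0.10 without AT2CTRL replicate 1, *Ext2* at 0.0011 with upper-quartile scaling and at 0.014 without AT2CAB replicate 3, and *Hs6st2* at -0.074 with the replicate block, at -0.096 with the age covariate, at -0.17 without AT2CTRL replicate 3 and at -0.59 without AT2CAB replicate 1. With 1 library left out, the ranges were -0.10 to 0.033 for *Ndst2*, -0.10 to 0.23 for *Hs6st1*, -0.11 to 0.014 for *Ext2* and -0.59 to 0.32 for *Hs6st2*. *Sulf2* was number 7 of the 10 in AT2CTRL also without division by length.

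Over all genes, 38 were called higher and 2 lower. The counts were 119 and 25 with DESeq2 and 108 and 34 with the covariate for Y-linked reads. The paper, whose methods name DESeq2, gives the same 119 and 25 for changes of more than 2-fold. The number called lower was 1 with upper-quartile scaling, 5 without the filter, 1 with the age covariate and 8 in the 4 Y-negative libraries. With 1 library left out, 6 to 59 were called higher (12, 6 and 7 without AT2CTRL replicates 1, 2 and 3, and 59, 8 and 25 without AT2CAB replicates 1, 2 and 3) and 0 to 4 lower. The 3 pathway lists held 0 genes past an adjusted p of 0.05, 1 with DESeq2 and 1 with the covariate for Y-linked reads (*Hpse* in both), and 0 with each library left out. The cause of these shifts was not tested.

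Libraries with the same replicate number came from different mice, and their deviations correlated at -0.32, 0.25 and -0.54. These values show no common pairing by number, but they cannot tell whether libraries shared a sort or a preparation. With the replicate block, 36 genes were called higher and 5 lower, and *Sulf2* was at 2.85. Depth limits *Hs6st2*, with at most 15 counts in a library.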
